A study of Mus musculus with 14 samples.

Results

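The genes described here are those of the nuclear pore complex and of the transport receptors that pass through it, in single mouse oocytes with and without the histone demethylase Kdm1a. They were taken as the rows of the count table whose symbol begins with Nup, Kpna, Kpnb, Ipo or Xpo followed by a digit, which gave 41 of 24064 genes. Of these, 39 had at least 1 count and 31 were abundant enough to be tested. Control oocytes were 4 wt/wt oocytes (wt1, wt3, wt4 and wt5, strain C57BL/6J) and 1 f/f oocyte (C3, mixed B6;129), which carries the floxed Kdm1a alleles without cre. Mutant oocytes were 5 mko/mko oocytes (D1, D2, D3, D4 and D7, mixed B6;129), from Kdm1a f/f females with a cre transgene under the Zp3 promoter, which is active in growing oocytes and removes the first exon of Kdm1a. The stage of the oocytes and the age of the females are not in the labels. Strain and library series change together between the wt/wt oocytes and all the others, so for the wt/wt oocytes they cannot be told apart from genotype, and C3 is the control that shares both with the mutant oocytes. The labels do not say which oocytes came from the same female, so each p-value measures the spread between these oocytes.

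The nuclear pore is a ring-shaped channel through the nuclear envelope, built from many copies of the Nup proteins. An outer ring (the Y complex) and an inner ring form its scaffold, FG-repeat proteins fill the central channel, and filaments extend to the cytoplasm and into the nuclear basket. Importin alpha (Kpna) proteins bind a nuclear localisation signal and dock on importin beta (Kpnb1), other importins (Ipo) bind their cargo directly, and exportins (Xpo) carry cargo out, all steered by the GTPase Ran. The oocyte stores these proteins and their transcripts for the pronuclei that form after fertilization, and it uses an importin alpha of its own, Kpna7.

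Kdm1a itself, the check of the labels, stood at 38.7, 18.6, 34.8 and 12.1 CPM in the 4 wt/wt oocytes, at 149 CPM in the f/f oocyte and at 0, 1.22, 1.42, 0.456 and 4.99 CPM in the mutant oocytes. CPM are counts per 1000000, over a library size adjusted by the TMM factor. All mutant oocytes lay below all controls (log2 fold change -5.02 ± 0.86 SE, edgeR adjusted p = 0.0011). Total counts were 1375187 to 6928548 in control and 2016701 to 6926076 in mutant oocytes. The upper end of the control range is C3 alone. No wt/wt oocyte exceeded 1892015 counts, so each had fewer counts than any mutant oocyte. The part of this difference in depth in the calls was not tested. Depending on the oocyte, 3 counts correspond to 0.456 to 1.83 CPM. Of 13 oocyte markers, 13 were tested and 8 were called higher in mutant oocytes, where 14.7% of all genes tested were called higher. Figla among them passed the filter on low counts through the mutant oocytes alone. The summed level of the markers was 20902 to 62402 CPM in control and 54795 to 123992 CPM in mutant oocytes. Gdf9, the most abundant, was at 6172 to 15483 CPM in wt/wt, 38321 CPM in f/f and 27213 to 72063 CPM in mutant oocytes. The f/f oocyte thus lay within the mutant range of Gdf9. Of 13 cumulus and granulosa markers, 7 (with Amh, Foxl2, Inha and Fshr among them) had no count in any oocyte, and Cyp19a1 was called higher (37.8 ± 22.6 against 106 ± 26.7 CPM, mean ± SD, n = 5 each). Nr5a2 of that list stood at 8.13 ± 3.84 and 2.71 ± 2.17 CPM and was not called (log2 fold change -1.60 ± 0.68 SE, edgeR adjusted p = 0.0916), and Has2, too low to be tested, had 4, 14, 3, 2 and 0 reads in control and 0, 1, 0, 0 and 0 in mutant oocytes. Cyp19a1 alone was at 8.52 to 62.8 and 79.2 to 147 CPM. The summed level of the list was 18.8 to 67.4 CPM in control and 84.1 to 149 CPM in mutant oocytes, and its part in the results was not tested.

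Levels in control oocytes were first set side by side per length of transcript. Because the cDNA reaches up to 3 kb from the 3′ end, each gene's CPM was divided by the length of its longest GENCODE transcript, capped at 3 kb. The inner ring gene Nup35 was the most abundant, at 414 ± 108 CPM per kb (mean ± SD, n = 5), followed by the importin Ipo8, which also serves microRNA-associated Argonaute proteins, at 344 ± 77.0 CPM per kb. The Y complex gene Nup37 (189 ± 50.8 CPM per kb) and the central channel gene Nup62 (186 ± 17.3 CPM per kb) came next, then Nup85 of the Y complex (122 ± 24.4) and Nup98 of the channel (98.5 ± 22.0). Among the 30 pairs of neighbours in this order of the 31 tested genes, the ranges over the 5 oocytes overlapped in 28. They did not overlap between Ipo8 and Nup37 or between Nup62 and Nup85, so the order is otherwise not resolved from step to step. Without the cap, long transcripts had lower levels. Ipo8 was then at 170.2 CPM per kb, below Nup37 and Nup62, and Nup98 at 44.1, Kpnb1 at 7.19, Xpo1 at 5.11, Nup205 at 3.02 and Nup155 at 0.291 CPM per kb.

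Scaffold genes did not share a level. Within the inner ring, Nup35 stood at 414 ± 108 CPM per kb, Nup93 at 25.5 ± 18.8, Nup205 at 6.44 ± 6.69, Nup188 at 3.35 ± 1.37 and Nup155 at 0.759 ± 0.297 CPM per kb in control oocytes. In the Y complex, Nup37 and Nup85 were above Nup107 (25.1 ± 16.3), Nup43 (16.6 ± 7.89) and Nup160 (12.4 ± 6.95), and Nup133 was at 0.672 ± 0.636 CPM per kb. The general receptors lay within the range of these scaffold genes, with Kpnb1, the importin beta that carries importin alpha cargo, at 14.1 ± 7.85 CPM per kb and Xpo1, the main protein exportin, at 10.2 ± 3.35 CPM per kb. The most abundant importin alpha was Kpna2 (59.8 ± 32.8), then Kpna7 (34.6 ± 13.9) and Kpna3 (28.8 ± 7.85), whose ranges overlapped.

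**Figure D1:**
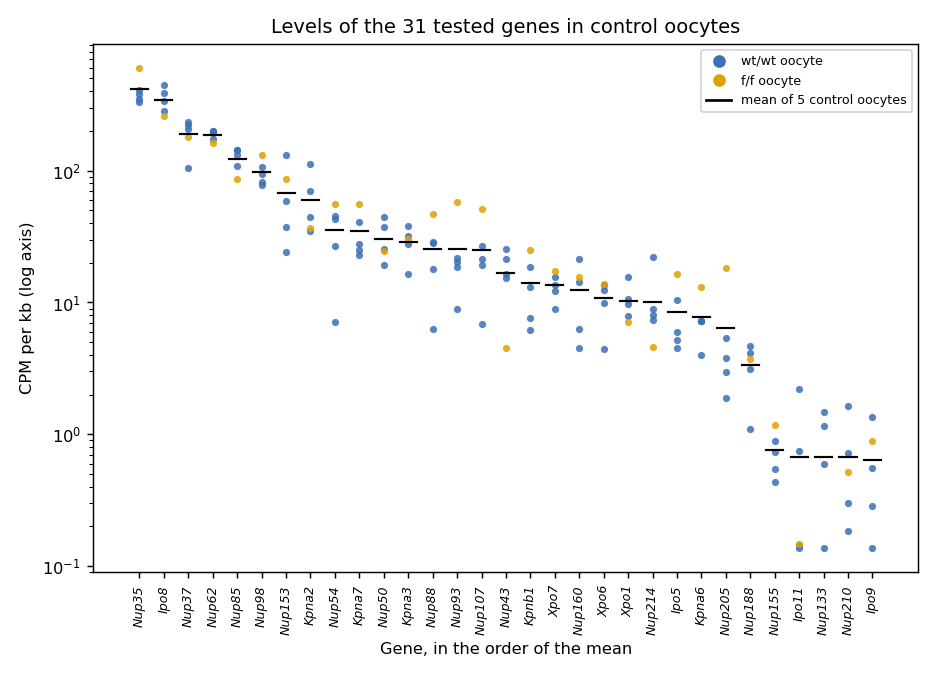
CPM per kb (log axis) of the 31 tested genes in the 4 wt/wt oocytes (blue) and the f/f oocyte (yellow), in the order of the mean over the 5 control oocytes (black line). Nup35 and Ipo8 lie highest, Nup155, Ipo11, Nup133, Nup210 and Ipo9 lie below 1 CPM per kb on average, and neighbouring genes mostly overlap. Nup133 had no count in the f/f oocyte and that point is not drawn.

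Mutant and control oocytes were then compared with the quasi-likelihood test of edgeR across 9198 genes. A gene was called where its Benjamini-Hochberg adjusted p was under 0.05 and its log2 fold change reached 1 or -1. Of the 31 tested genes of the pore and its receptors, 11 were called (35.5%), beside 25.9% of all genes tested. Of these, 8 were higher in mutant oocytes (Kpna2, Ipo9, Nup93, Nup107, Nup155, Nup160, Nup188 and Xpo6), where 14.7% of all genes were called higher, and 3 were lower (Nup62, Nup98 and Nup50), where 11.2% of all genes were called lower. Every mutant oocyte lay above every control oocyte for 2 genes (8.09% of all genes tested) and below for 3 genes (also 8.09% of all genes tested). The median log2 fold change, mutant minus control, was 0.44 over the 31 genes and 0.17 over all genes tested. Library size scaling bears on the signs of genes that were not called, since with library totals alone the 2 medians were -0.03 and -0.23 and 8 of the 31 genes changed sign, none of them called. With library totals alone, 3 of the 31 genes were called higher and 5 lower, and 36.6% of all called genes were higher, against 56.8% with TMM factors.

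**Figure D2:**
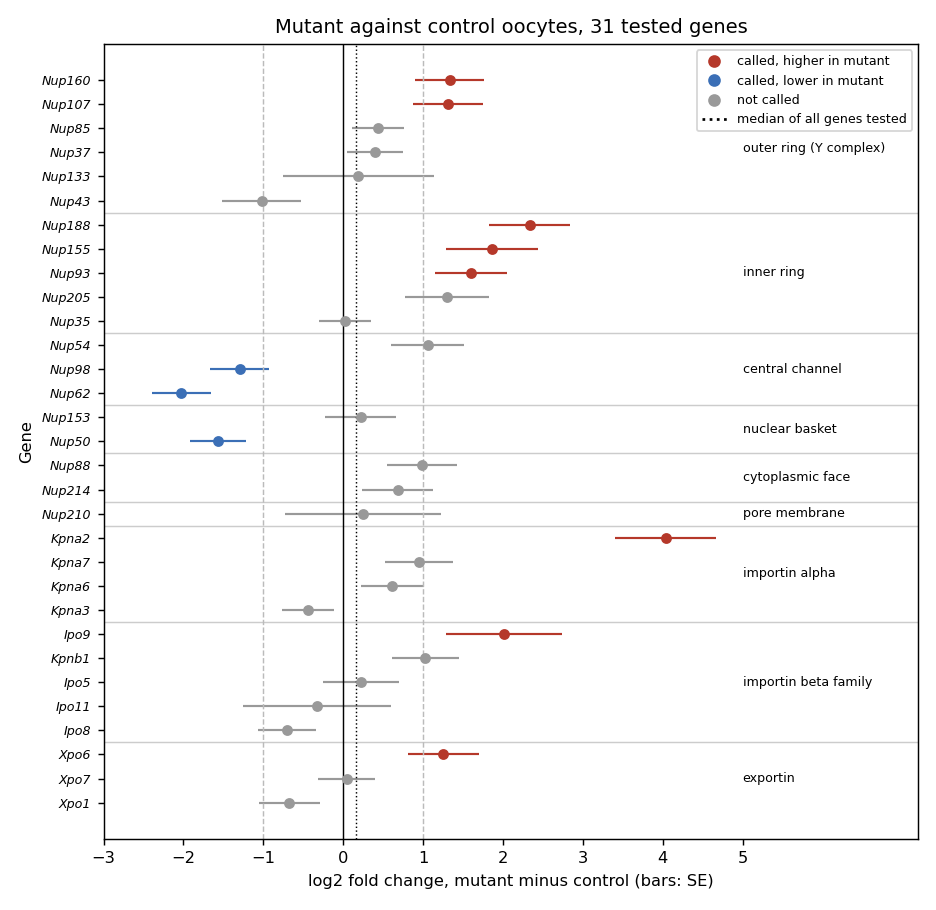
log2 fold change, mutant minus control, of the 31 tested genes by role, with bars of 1 SE from the edgeR fit. Genes called higher are red, genes called lower are blue, the dashed lines mark a log2 fold change of 1 in either direction, and the dotted line marks the median of all genes tested (0.17). Kpna2 lies farthest to the right, and the 3 genes called lower belong to the central channel and the nuclear basket.

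The control group itself was not uniform, and this changed the count. Compared with the 4 wt/wt oocytes alone, 18 of 32 tested genes were called, 14 higher and 4 lower, beside 31.5% of all genes in that fit. The genes added were Kpna7, Kpnb1, Nup54, Nup88, Nup205 and Ipo13 among the higher and Nup43 among the lower. Ipo13 had no read in any wt/wt oocyte and passed the filter on low counts through the mutant oocytes alone. For 4 of the 8 genes called higher, the f/f oocyte lay within the range of the mutant oocytes and not within that of the wt/wt oocytes. It lay within the wt/wt range alone for 3 of them (Kpna2, Nup188 and Nup160) and within both ranges for 1 (Ipo9). Against the f/f oocyte alone edgeR called none of the 31 genes tested, with 7 (22.6%) at an unadjusted p under 0.05 beside 19% of all genes, in a fit that called 3 of 8811 genes and in which the lone control is assumed to vary like the mutant oocytes. Leaving out wt1, wt3 or wt4 lowered the count of called genes to 7, 6 and 6, in fits that called 19.3%, 19% and 18.7% of all genes.

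The largest difference among the tested genes was in Kpna2, the importin alpha of dividing and embryonic cells. Its window of 250 bases before the start annotated by RefSeq is shown beside that of Kpna7, the oocyte importin alpha, because Kpna2 was called and Kpna7, of the same family, was not. Capitals mark matches on either strand to the CCAAT box, to GGGCGG of the GC box, to GCATGCGC of the NRF1 motif, to AAGATGGCG of the YY1 motif, to the E-box CACGTG, to the TATA motif TATAAA or to TTTGAA, a set of motifs chosen after the values were seen (build GRCm38.p6, RefSeq, 5′ to 3′ along the gene). The first window is chr11:106999526-106999775 on the minus strand and the second is chr5:145009637-145009886 on the minus strand.
Kpna2: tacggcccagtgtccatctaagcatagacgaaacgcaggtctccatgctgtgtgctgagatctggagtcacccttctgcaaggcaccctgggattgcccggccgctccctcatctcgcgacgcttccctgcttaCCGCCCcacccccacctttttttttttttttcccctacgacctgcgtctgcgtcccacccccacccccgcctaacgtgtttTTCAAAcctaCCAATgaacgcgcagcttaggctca
Kpna7: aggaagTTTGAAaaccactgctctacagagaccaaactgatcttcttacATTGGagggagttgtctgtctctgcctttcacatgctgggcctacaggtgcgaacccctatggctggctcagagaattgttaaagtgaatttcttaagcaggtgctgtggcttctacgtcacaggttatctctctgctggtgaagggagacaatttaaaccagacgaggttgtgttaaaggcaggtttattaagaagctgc

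The Kpna2 window holds a GGGCGG match on the minus strand at -116, a TTTGAA match on the minus strand at -35 and a CCAAT box at -25 from the start, and a second CCAAT box lies at 6 past it. The Kpna7 window holds a TTTGAA match at -244 and a CCAAT match on the minus strand at -201, and no GGGCGG match. CCAAT was found in 37.4% of the 32851 windows of all genes (250 bases before to 50 after a start), GGGCGG in 35.7% and TTTGAA in 17.9%, so each is common. Among the 36 windows of 31 of the genes described here, 58.3% held CCAAT and 66.7% held GGGCGG. A match describes the letters of the window.

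Kpna2 (chr11:106988629-106999541, minus strand, GENCODE vM21 on mm10, as for all gene positions here) rose in mutant oocytes. It stood at 143, 71.2, 92.0 and 232 CPM in the wt/wt oocytes, at 75.7 CPM in the f/f oocyte and at 3095, 2099, 677, 3892 and 308 CPM in D1, D2, D3, D4 and D7. Each mutant oocyte was above all 5 controls, and the f/f oocyte was within the wt/wt range. The means were 123 ± 67.4 and 2014 ± 1533 CPM (mean ± SD, n = 5 each), 16.4 times higher in mutant oocytes (log2 fold change 4.04 ± 0.63 SE, edgeR adjusted p = 0.000681). The mutant oocytes were spread widely among themselves, from 308 CPM in D7 to 3892 CPM in D4. In counts, wt1, wt3, wt4, wt5 and C3 had 259, 165, 225, 517 and 341 reads and D7 had 617. A processed copy of Kpna2 lies on chromosome 17. Only unique best alignments were kept, so reads that match both equally were not counted. The effect of this on the level was not tested. The gene was called in every setting tried except with C3 as the lone control (log2 fold change 4.75, adjusted p = 0.145).

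Kpna7 was not called. Its level was 61.3, 68.6, 100.2 and 56.5 CPM in wt/wt, 138 CPM in f/f and 281, 131, 97.9, 242 and 68.8 CPM in mutant oocytes, so D1 and D4 were highest while D2, D3 and D7 lay within the range of the controls (log2 fold change 0.95 ± 0.42 SE, edgeR adjusted p = 0.107). Without C3 or without D7 it passed the thresholds (log2 fold change 1.22 and 1.19, adjusted p = 0.0378 and 0.0446 in the edgeR fit). Its exons share 50 bases with Arpc1a on the other strand. Kpna3, an importin alpha of broad expression, stood at 49.3 to 114 CPM in control and 46.9 to 74.8 CPM in mutant oocytes (log2 fold change -0.44 ± 0.33 SE, edgeR adjusted p = 0.34). Kpna6 stood at 12.1 to 39.3 and 24.9 to 46.6 CPM (log2 fold change 0.61 ± 0.39 SE, edgeR adjusted p = 0.258). Kpna1 and Kpna4 had at most 1.67 CPM in any oocyte and were not tested.

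Within an oocyte, the make-up of the importin alpha transcripts does not depend on the scaling of its library. Of the summed CPM per kb of the 6 importin alpha genes, Kpna2 took 51.8%, 36.7%, 34.3% and 70.6% in wt1, wt3, wt4 and wt5, 27.0% in C3 and 91.4%, 92.6%, 80.4%, 93.3% and 71.3% in D1, D2, D3, D4 and D7. The groups did not overlap, though D7 and wt5 lay close together. Kpna7 took 27.0% ± 10.7 (SD, n = 5) of the sum in control and 7.94% ± 3.63 in mutant oocytes. Kpna3 took 22.9% ± 7.74 and 4.20% ± 4.46, with D7 above wt5. These shares restate the Kpna2 difference and were not tested.

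**Figure D3:**
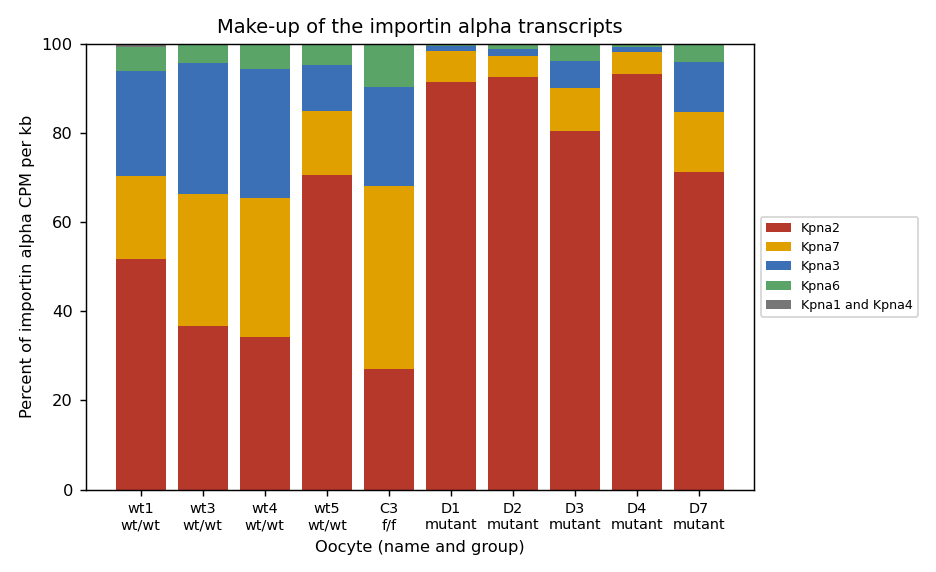
Percent of the summed importin alpha CPM per kb taken by each gene in each of the 10 oocytes, with no error bars because each bar is 1 oocyte. Kpna2 (red) takes 27.0% to 70.6% in the 5 control oocytes and 71.3% to 93.3% in the 5 mutant oocytes.

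The importin beta family had 1 call among 5 tested genes. Ipo9 (chr1:135382312-135430499, minus strand), an importin for histones and actin, was called higher at low counts. It had 3, 2, 1, 9 and 12 reads in wt1, wt3, wt4, wt5 and C3 and 12, 7, 20, 125 and 4 in the mutant oocytes. In CPM this was 1.93 ± 1.46 and 7.79 ± 6.59 (log2 fold change 2.01 ± 0.72 SE, edgeR adjusted p = 0.0497), with D7 inside the control range and D4 highest. Left out singly, wt1, wt3, wt4, D1, D2, D3 or D4 ended the Ipo9 call (log2 fold change 1.35 to 2.13, adjusted p 0.0611 to 0.199 in the edgeR fit). It was also lost with library totals alone (1.69, adjusted p = 0.106), with upper-quartile scaling (1.99, adjusted p = 0.0528), without a filter (2.03, adjusted p = 0.0561) and with 1 library per oocyte (1.91, adjusted p = 0.0716). Without D4 the ratio of the means went from 4.05 to 2.59. The controls held 27 of its reads, under the 35 reads that the least abundant tested gene had in all, though at the control level in all 10 oocytes its total would have been 54.2 reads. The filterByExpr filter left Ipo9 out of the test.

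Kpnb1 was at 55.8, 18.6, 39.3 and 22.9 CPM in wt/wt, 75.3 CPM in f/f and 65.8, 52.4, 104, 124 and 86.8 CPM in mutant oocytes and was not called (log2 fold change 1.03 ± 0.42 SE, edgeR adjusted p = 0.0794). The f/f oocyte lay among the mutant oocytes, and without it Kpnb1 passed the thresholds (log2 fold change 1.35, adjusted p = 0.0188). Kpnb1 was also called with limma voom (1.21, adjusted p = 0.02), with GC and length trends removed (1.12, adjusted p = 0.0423) and with filterByExpr (1.10, adjusted p = 0.0456). An antisense gene shares 466 exon bases with Kpnb1, and the use of strand in the counting is not stated. Ipo8, the most abundant of the family, was at 853, 1345, 1171 and 1006 CPM in wt/wt, 779 CPM in f/f and 364, 685, 855, 351 and 918 CPM in mutant oocytes. D1 and D4 were lowest, and D3 and D7 lay inside the control range (log2 fold change -0.70 ± 0.36 SE, edgeR adjusted p = 0.162). With library totals alone Ipo8 was called lower (log2 fold change -1.18, adjusted p = 0.0274). Ipo5, an importin for ribosomal proteins and histones, stood at 13.5 to 49.3 CPM in control and 12.2 to 43.2 CPM in mutant oocytes, and Ipo11 at 0.409 to 6.63 and 0.609 to 2.49 CPM, neither called.

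Ipo4, an importin for histones, was among the genes left out for low counts. It had 5, 5, 6, 3 and 0 reads in wt1, wt3, wt4, wt5 and C3 and 1, 0, 0, 1 and 0 in D1, D2, D3, D4 and D7. Reads thus stood at 3 to 6 in each wt/wt oocyte and at 0 in C3, so the reads of the controls were all in the wt/wt group, and 2583 of its exon bases are also part of an overlapping gene model on the same strand. Ipo13, which carries cargo in both directions, had 0, 0, 0, 0 and 1 reads in controls and 3, 0, 3, 26 and 0 in mutant oocytes. It entered the test and passed it only when C3, D2 or D7 was left out, and D2 and D7 had no read of it. Ipo7 had at most 2 reads in an oocyte.

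The exportins had 1 call among 3 tested genes. Xpo6 (chr7:126101715-126200501, minus strand), the exportin for actin and profilin, was higher in mutant oocytes. It stood at 13.3, 29.8, 37.6 and 40.8 CPM in wt/wt, 41.1 CPM in f/f and 131, 118, 51.3, 33.5 and 57.3 CPM in mutant oocytes. D1 and D2 were far above the rest and D4 lay inside the control range (32.5 ± 11.7 against 78.0 ± 43.2 CPM, mean ± SD, n = 5 each, log2 fold change 1.25 ± 0.44 SE, edgeR adjusted p = 0.0446). Left out singly, wt1, wt3, wt4, D1 or D2 ended the Xpo6 call (log2 fold change 1.02 to 1.34, adjusted p 0.0758 to 0.131 in the edgeR fit). It was also lost with library totals alone (0.80, adjusted p = 0.199) and with every library as its own sample (0.98, adjusted p = 0.0563). Xpo1, also called Crm1, was at 47.0, 29.3, 31.9 and 23.8 CPM in wt/wt, 21.3 CPM in f/f and 15.4, 14.01, 17.1, 28.7 and 19.9 CPM in mutant oocytes and was not called (log2 fold change -0.67 ± 0.38 SE, edgeR adjusted p = 0.203). The groups overlapped, with D4 above wt5 and C3. Xpo7, the other exportin tested, was at 40.6 ± 9.67 CPM in control and 41.9 ± 14.3 CPM in mutant oocytes (log2 fold change 0.04 ± 0.36 SE, edgeR adjusted p = 0.94). Its exons share 39 bases with Npm2, a histone chaperone gene of the oocyte. Xpo4 and Xpo5 had at most 2.21 CPM and were not tested.

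In the pore itself, Nup62 and Nup98 fell among the 3 tested genes of the central channel, and Nup54 was not called. In the nuclear basket, Nup50, which helps to release importin alpha from its cargo on the nuclear side, fell and Nup153 was not called. The windows before the starts of Nup62 and Nup50 are printed here because, of the 3 genes called lower, these hold GCATGCGC in the window. They are chr7:44815838-44816087 and chr15:84923178-84923427, both on the plus strand of GRCm38.p6 as given by RefSeq, with the capitals as above.
Nup62: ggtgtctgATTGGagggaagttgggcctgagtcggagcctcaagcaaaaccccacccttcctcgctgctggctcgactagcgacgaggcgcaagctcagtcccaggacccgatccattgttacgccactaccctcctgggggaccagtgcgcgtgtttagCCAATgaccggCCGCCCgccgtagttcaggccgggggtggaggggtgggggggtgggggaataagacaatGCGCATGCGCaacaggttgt
Nup50: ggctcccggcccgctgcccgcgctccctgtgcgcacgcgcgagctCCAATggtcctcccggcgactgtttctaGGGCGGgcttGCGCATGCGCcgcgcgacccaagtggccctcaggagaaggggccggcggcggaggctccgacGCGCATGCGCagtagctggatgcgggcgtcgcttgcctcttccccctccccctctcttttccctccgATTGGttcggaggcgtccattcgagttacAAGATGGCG

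GCATGCGC, the core of the NRF1 motif, and its complement GCGCATGC overlap, so GCGCATGCGC counts on both strands. It lies at -20 from the start of Nup62 and at -167 and -105 from that of Nup50. It was found in 2.71% of all 32851 windows and in 4 of 36 windows of the genes described here (11.1%), the others being those of Nup107, which was called higher, and Xpo5, which was not tested. All 3 genes called lower had a CCAAT and a GGGCGG match, as had 5 and 7 of the 8 genes called higher. AAGATGGCG, which is at -9 in Nup50, was found in 1.4% of all windows and 11.1% of these, CACGTG in 7.15% and 13.9%, and TATAAA in 13.6% and 11.1%. The other windows with AAGATGGCG are those of Nup188, which was called higher, and of Nup205 and Nup88, which were not called.

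Nup62 (chr7:44816088-44830812, plus strand), the FG-repeat protein at the centre of the channel, had the largest decrease among the tested genes. Its level was 547, 546, 469 and 521 CPM in wt/wt oocytes, 442 CPM in the f/f oocyte and 86.7, 191, 163, 52.9 and 127 CPM in D1, D2, D3, D4 and D7. The control oocytes lay close together and every mutant oocyte was below all of them. The means were 505 ± 47.2 and 124 ± 55.7 CPM (mean ± SD, n = 5 each), 4.07 times lower in mutant oocytes (log2 fold change -2.03 ± 0.37 SE, edgeR adjusted p = 0.00159). The exons of Nup62 share 82 bases with Atf5 on the other strand and 97 bases with Il4i1 on the same strand, and the Nup62-il4i1 readthrough gene had no count.

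Nup98 (chr7:102119398-102210176, minus strand), an FG-repeat protein found on both faces of the pore whose gene also encodes the Y complex subunit Nup96, was at 232, 284, 322 and 244 CPM in wt/wt, 395 CPM in f/f and 64.2, 173, 115, 70.4 and 179 CPM in mutant oocytes. All mutant oocytes were below all controls, and the f/f oocyte was the highest of the 10. The means were 295 ± 66.0 and 120.4 ± 54.7 CPM, 2.45 times lower in mutant oocytes (log2 fold change -1.30 ± 0.37 SE, edgeR adjusted p = 0.0176). Nup54, the partner of Nup62 in the channel, was at 107, 62.6, 102 and 16.6 CPM in wt/wt, 131 CPM in f/f and 126, 108, 212, 255 and 171 CPM in mutant oocytes. The mutant oocytes reached higher, wt5 was lowest, and the groups overlapped (log2 fold change 1.06 ± 0.46 SE, edgeR adjusted p = 0.0961). Without C3 it passed the thresholds in the direction opposite to Nup62 (log2 fold change 1.29, adjusted p = 0.0385). Nup54 was also called with limma voom (1.13, adjusted p = 0.0398) and with every library as its own sample (1.04, adjusted p = 0.0305).

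Nup50 (chr15:84923411-84942963, plus strand) was at 76.8, 133, 112 and 57.9 CPM in wt/wt, 74.1 CPM in f/f and 21.4, 39.0, 29.6, 33.0 and 29.9 CPM in mutant oocytes. The f/f oocyte was within the wt/wt range and no mutant oocyte reached the lowest control. The means were 90.8 ± 30.7 and 30.6 ± 6.37 CPM, 2.97 times lower in mutant oocytes (log2 fold change -1.57 ± 0.35 SE, edgeR adjusted p = 0.00527). Nup153, the other basket gene and an anchor of the basket to the ring, varied widely in both groups, from 72.1 to 392 CPM in control and from 124 to 325 CPM in mutant oocytes (log2 fold change 0.22 ± 0.44 SE, edgeR adjusted p = 0.746). With C3 as the lone control none of the 3 was called (log2 fold change -1.80 for Nup62, -1.69 for Nup98 and -1.25 for Nup50, adjusted p = 0.185, 0.198 and 0.262). Nup62 and Nup50 were called under all other alternatives tried, and Nup98 under all but the replicate block (adjusted p = 0.0539).

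Of the 5 tested genes of the inner ring, Nup93, Nup188 and Nup155 rose in the edgeR fit and Nup205 and Nup35 were not called by it. Nup93 (chr8:94214564-94317227, plus strand), which holds the inner ring together, was at 59.1, 54.8, 63.8 and 26.0 CPM in wt/wt, 169.8 CPM in f/f and 313, 292, 163, 176 and 193 CPM in mutant oocytes. The 4 wt/wt oocytes were below all mutant oocytes, while the f/f oocyte was among them, above D3. The means were 74.7 ± 55.2 and 227 ± 69.6 CPM, 3.04 times higher in mutant oocytes (log2 fold change 1.60 ± 0.44 SE, edgeR adjusted p = 0.016). Against C3 alone the log2 fold change was 0.45 (adjusted p = 0.736).

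Nup188 (chr2:30286397-30344266, plus strand), a large scaffold protein that binds Nup93, stood at 3.32, 12.5, 9.41 and 13.9 CPM in wt/wt, 11.1 CPM in f/f and 102, 64.0, 19.2, 40.5 and 30.4 CPM in mutant oocytes. Here the f/f oocyte was with the wt/wt oocytes, and every mutant oocyte was above every control. The means were 10.05 ± 4.12 and 51.2 ± 32.8 CPM, 5.10 times higher in mutant oocytes (log2 fold change 2.33 ± 0.50 SE, edgeR adjusted p = 0.00427). Its exons share 284 bases with another gene model on the same strand and 492 bases with one on the other strand. Nup155 (chr15:8109273-8161247, plus strand), a membrane-contacting protein of the inner ring, was low, with 4, 3, 4, 6 and 16 reads in wt1, wt3, wt4, wt5 and C3 and 13, 15, 22, 96 and 7 in the mutant oocytes. In CPM the means were 2.28 ± 0.891 and 8.44 ± 4.03 (log2 fold change 1.86 ± 0.58 SE, edgeR adjusted p = 0.027), with D7 just below C3. Left out singly, wt1, wt3, wt4, D2 or D4 ended the Nup155 call (log2 fold change 1.57 to 1.85, adjusted p 0.0513 to 0.0723 in the edgeR fit). It was also lost with library totals alone (1.55, adjusted p = 0.0781) and without a filter (1.86, adjusted p = 0.0584). The controls held 33 of its reads, and at the control level in all 10 oocytes its total would have been 64.1 reads, above the 35 of the least abundant tested gene. It was left out of the test by filterByExpr, and against C3 alone its log2 fold change was 1.27 (adjusted p = 0.493).

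Nup205, the paralog of Nup188, stood at 16.0, 5.61, 11.4 and 8.97 CPM in wt/wt, 54.6 CPM in f/f and 45.5, 45.1, 57.0, 32.9 and 60.8 CPM in mutant oocytes. The f/f oocyte lay inside the mutant range, and the gene was not called (log2 fold change 1.30 ± 0.53 SE, edgeR adjusted p = 0.078). Without C3 it was called, at a log2 fold change of 2.21 (adjusted p = 0.00139). Nup205 was also called with DESeq2 (1.34, adjusted p = 0.0449), with limma voom (2.13, adjusted p = 0.00105), with GC and length trends removed (1.46, adjusted p = 0.0393), with filterByExpr (1.41, adjusted p = 0.048) and with C3 taken from 1 of its libraries (1.65, adjusted p = 0.0177). Nup35, the most abundant in control oocytes, was at 1100.4, 893, 938 and 1022 CPM in wt/wt, 1614 CPM in f/f and 915, 930.3, 1696, 1072 and 1053 CPM in mutant oocytes, with C3 and D3 above the rest (log2 fold change 0.03 ± 0.33 SE, edgeR adjusted p = 0.962).

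Of the 6 tested genes of the Y complex, Nup107 and Nup160 rose and 4 were not called. Nup107 (chr10:117750621-117792705, minus strand), a stem protein of the complex, was at 64.1, 57.4, 80.6 and 20.6 CPM in wt/wt, 153 CPM in f/f and 134, 186, 195, 156 and 267 CPM in mutant oocytes. The mutant oocytes were all above the wt/wt oocytes, and the f/f oocyte was between D1 and D4 (75.2 ± 48.9 against 188 ± 50.5 CPM, log2 fold change 1.31 ± 0.44 SE, edgeR adjusted p = 0.0358). Left out singly, wt1, wt3, wt4, D2 or D7 ended the Nup107 call (log2 fold change 1.21 to 1.35, adjusted p 0.0526 to 0.0783 in the edgeR fit). It was also lost with library totals alone (1.06, adjusted p = 0.0555). Against C3 alone its log2 fold change was 0.32 (adjusted p = 0.813). Nup160 (chr2:90677215-90736328, plus strand), in an arm of the complex, was at 64.1, 19.0, 42.5 and 13.5 CPM in wt/wt, 46.6 CPM in f/f and 82.8, 62.1, 78.3, 152 and 90.7 CPM in mutant oocytes. D2 was just below wt1 and D4 was highest (37.1 ± 20.8 against 93.3 ± 34.6 CPM, log2 fold change 1.33 ± 0.44 SE, edgeR adjusted p = 0.0335). Left out singly, wt3, wt4, wt5, D1 or D4 ended the Nup160 call (log2 fold change 1.09 to 1.38, adjusted p 0.0502 to 0.0808 in the edgeR fit). It was also lost with library totals alone (0.96, adjusted p = 0.129).

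Nup37, which binds Nup160 and has the highest mean CPM of the uncalled Y complex genes in control oocytes, stood at 320.0, 301, 336 and 153 CPM in wt/wt, 258 CPM in f/f and 214, 462, 460.1, 236 and 436 CPM in mutant oocytes, and the groups overlapped (log2 fold change 0.40 ± 0.35 SE, edgeR adjusted p = 0.416). Nup85, of the short arm, was at 273 ± 54.5 and 369 ± 109.6 CPM (log2 fold change 0.44 ± 0.32 SE, edgeR adjusted p = 0.332). Nup43, also of the short arm, was at 26.5, 44.0, 37.2 and 28.7 CPM in wt/wt, 7.77 CPM in f/f and 8.23, 8.53, 11.4, 27.1 and 14.5 CPM in mutant oocytes, with C3 the lowest of the 10 (log2 fold change -1.02 ± 0.49 SE, edgeR adjusted p = 0.135). Without C3 it was called lower (log2 fold change -1.27, adjusted p = 0.0313). Nup43 was also called with limma voom (-1.40, adjusted p = 0.0215), with GC and length trends removed (-1.36, adjusted p = 0.0373) and with library totals alone (-1.54, adjusted p = 0.0497). Nup133 was at 0 to 4.42 CPM in control and 0.499 to 3.84 CPM in mutant oocytes (log2 fold change 0.19 ± 0.95 SE, edgeR adjusted p = 0.902).

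On the cytoplasmic face, neither tested gene was called by edgeR, with 1 at an unadjusted p under 0.05, nor by DESeq2, and 1 was called by limma voom. Nup88, which anchors Nup214, stood at 54.2, 84.2, 85.9 and 18.8 CPM in wt/wt, 140.3 CPM in f/f and 126, 97.5, 186, 145 and 203 CPM in mutant oocytes (log2 fold change 0.98 ± 0.44 SE, edgeR adjusted p = 0.107), and it was called higher without C3 (log2 fold change 1.34, adjusted p = 0.0215). Nup88 was also called with limma voom (1.16, adjusted p = 0.0268). Nup214, a docking site for Xpo1 and for the messenger RNA helicase, was at 13.8 to 65.9 CPM in control and 24.6 to 68.0 CPM in mutant oocytes (log2 fold change 0.68 ± 0.44 SE, edgeR adjusted p = 0.265). Without wt5, its highest control, it was called higher (log2 fold change 1.21, adjusted p = 0.0409). In the membrane ring, Nup210 had at most 4.94 CPM (log2 fold change 0.25 ± 0.98 SE, edgeR adjusted p = 0.874), and its paralog Nup210l had a count in 1 oocyte. Nup62cl, a gene related to Nup62, and Nup62-il4i1 had no count in any oocyte.

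**Figure D4:**
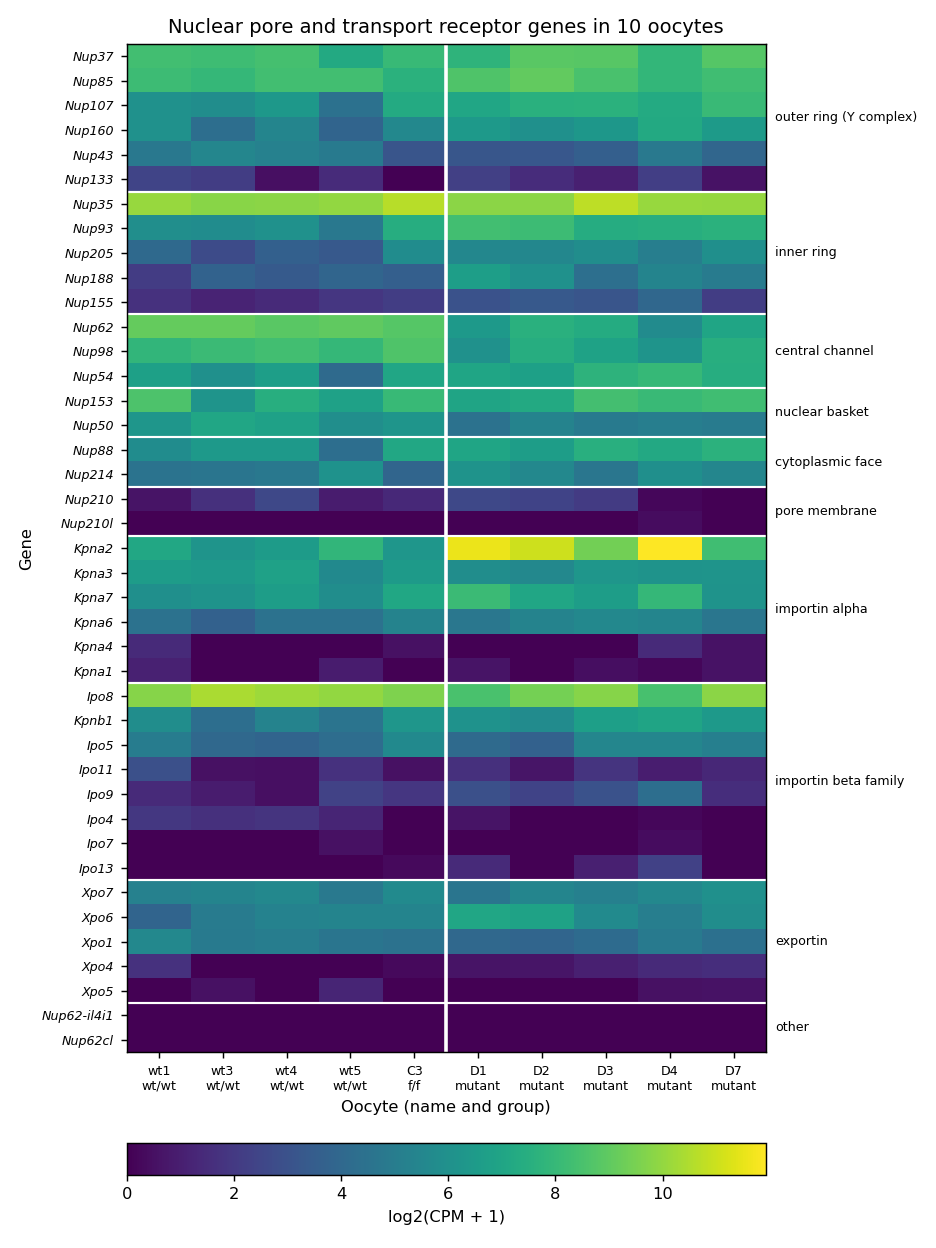
log2(CPM + 1) of the 41 genes (rows, by role) in the 10 oocytes (columns, with the 5 control oocytes left of the white line). The rows of Kpna2, Nup62, Nup98 and Nup50 change across the line, Nup35 and Ipo8 are bright in all 10 oocytes, and 2 rows have no count.

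The ratio of a scaffold gene to a channel gene within an oocyte does not depend on the scaling of its library. For each read of Nup62 there were 0.117, 0.105, 0.172 and 0.0396 reads of Nup107 in wt1, wt3, wt4 and wt5, 0.347 in C3 and 1.54, 0.978, 1.199, 2.95 and 2.10 in the mutant oocytes. The ratio was higher in every mutant oocyte than in any control, and the f/f oocyte was the highest of the controls. For Nup93 the ratio was 0.0499 to 0.136 in the wt/wt group, 0.384 in C3 and 1.00 to 3.61 in mutant oocytes. Again no mutant oocyte overlapped a control. These pairs were chosen after the calls were known and have no test of their own. Nup62 alone already separated the groups, so the ratios restate its difference and the calls of Nup107 and Nup93.

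**Figure D5:**
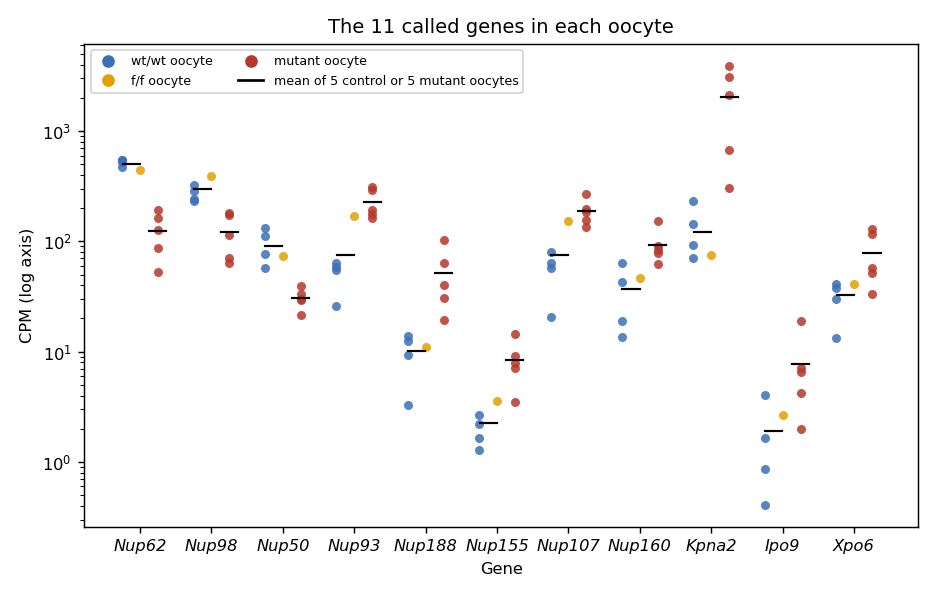
CPM (log axis) of the 11 called genes in wt/wt (blue), f/f (yellow) and mutant (red) oocytes, with black lines at the means of the 5 control and of the 5 mutant oocytes. For Nup62, Nup98 and Nup50 the mutant oocytes lie below all controls, for Kpna2 and Nup188 above all controls, and for Nup93 and Nup107 the f/f oocyte lies with the mutant oocytes.

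The oocytes C3, D3, D4 and D7 each had 2 libraries, which were summed although the deposited descriptions number them as separate oocytes. Over the genes described here with at least 20 reads, the libraries of an oocyte differed by a median absolute log2 ratio of 0.548 in C3, 0.452 in D3, 0.228 in D4 and 0.549 in D7. The widest gap on the log2 scale was 1.32 in C3 (Nup205), 2.33 in D3 (Ipo9), 0.842 in D4 (Nup133) and 1.24 in D7 (Xpo1). One library of each pair has the suffix DNA in its name, which the wt/wt, D1 and D2 libraries lack. For Ipo8 this library was the lower of each pair. It was at 362, 438, 269 and 610 CPM of the library total in C3, D3, D4 and D7, beside 656, 861, 388 and 1079. For Xpo1 it was the higher, at 18.8, 20.4, 33.3 and 27.4 beside 8.80, 12.5, 22.2 and 11.3. For Nup62 the direction differed between oocytes. The part of the suffix in the results was not tested.

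The rest of the transport machinery was read from 5 lists of 48 genes, of which 42 were tested. In these, 7 were called higher and 5 lower (28.6%, beside 25.9% of all genes tested), while the split was 4 higher and 12 lower with library totals alone, 5 and 7 with GC and length trends removed, and 7 and 8 with DESeq2 and with limma voom. The median log2 fold change was -0.01. Among the 11 tested pore genes that do not carry the Nup name, Aaas of the cytoplasmic face rose and Tpr, Seh1l and Nupl2 fell. Seh1l, a Y complex subunit, was at 178, 129.9, 165 and 127 CPM in wt/wt, 138 CPM in f/f and 20.3, 39.6, 42.0, 30.4 and 61.8 CPM in mutant oocytes, with all mutant oocytes below all controls (log2 fold change -1.92 ± 0.36 SE, edgeR adjusted p = 0.0017). Nup107 and Nup160 of the same complex were called in the other direction. Tpr, the filament of the nuclear basket, was at 230.5, 191, 223 and 206 CPM in wt/wt, 84.6 CPM in f/f and 52.7, 40.8, 85.8, 47.8 and 115 CPM in mutant oocytes, and C3 lay within the mutant range (log2 fold change -1.45 ± 0.39 SE, edgeR adjusted p = 0.014). Nupl2 fell from 24.3 ± 9.65 to 7.10 ± 5.08 CPM (log2 fold change -1.78 ± 0.56 SE, edgeR adjusted p = 0.0287), a call lost without wt1, wt3, wt4, D1, D2 or D7 (log2 fold change -1.80 to -1.56, adjusted p 0.0517 to 0.08), and Aaas rose from 45.8 ± 18.7 to 148 ± 62.9 CPM (log2 fold change 1.69 ± 0.40 SE, edgeR adjusted p = 0.00722).

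Of 5 tested genes of the Ran cycle, Ranbp1, a cofactor in the hydrolysis of RanGTP, rose from 4.07 ± 0.846 to 15.4 ± 8.64 CPM (log2 fold change 1.93 ± 0.52 SE, edgeR adjusted p = 0.0132). Ran itself was at 117, 87.6, 77.7 and 93.8 CPM in wt/wt, 162 CPM in f/f and 60.9, 85.3, 77.6, 62.2 and 59.8 CPM in mutant oocytes and was not called (log2 fold change -0.64 ± 0.33 SE, edgeR adjusted p = 0.156). None of the 6 tested genes of other receptors was called by edgeR, with 2 at an unadjusted p under 0.05 and 2 called by DESeq2 and by limma voom. Cse1l, which returns importin alpha to the cytoplasm, was at 20.5 ± 10.1 and 8.22 ± 3.01 CPM (log2 fold change -1.31 ± 0.47 SE, edgeR adjusted p = 0.0506). In messenger RNA export, 3 of 14 tested genes were higher and 1 was lower. Thoc1 rose from 17.8 ± 5.25 to 55.4 ± 16.3 CPM (log2 fold change 1.64 ± 0.37 SE, edgeR adjusted p = 0.0052) and Ddx19a, the helicase at the cytoplasmic face, from 119 ± 73.7 to 327 ± 184 CPM (log2 fold change 1.46 ± 0.50 SE, edgeR adjusted p = 0.0412). The Ddx19a call was lost without wt1, wt3, wt4, wt5, D1, D3 or D4 (log2 fold change 1.11 to 1.503, adjusted p 0.0576 to 0.112). Nxf1, the export receptor of messenger RNA, had 5, 13, 15, 12 and 9 reads in wt1, wt3, wt4, wt5 and C3 and 1, 0, 3, 13 and 1 in D1, D2, D3, D4 and D7. At the level of the mutant oocytes its total would have been 23.0 reads, under the 35 of the least abundant tested gene, so it passed the filter through the control oocytes and its call is given as a count only. That call held when C3 or D4 was left out and was lost without any other oocyte. Alyref, an adaptor of the same pathway, had 0, 0, 0, 0 and 2 reads in wt1, wt3, wt4, wt5 and C3 and 7, 6, 16, 197 and 17 in D1, D2, D3, D4 and D7, so it passed the filter on low counts through the mutant oocytes alone and its call is given as a count only. The mean of the mutant oocytes was 8.34 times a floor of 3 counts in each control oocyte, and 4.37 times that floor without D4. D1 and D2 were lowest of the mutant oocytes, at 3.84 and 3.66 CPM, and D4 was highest, at 30.0 CPM. These ratios describe the reads that let Alyref pass the filter and were not tested.

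At the lamina, 2 of 6 tested genes were higher and 1 was lower. Emd, which encodes emerin, rose from 9.07 ± 8.54 to 49.7 ± 11.9 CPM (log2 fold change 2.41 ± 0.52 SE, edgeR adjusted p = 0.00407). C3 was its highest control, at 24.0 CPM, and without it the ratio of the means went from 5.48 to 9.31. Banf1, which binds DNA to the envelope, rose from 87.2 ± 24.6 to 272 ± 141 CPM (log2 fold change 1.64 ± 0.40 SE, edgeR adjusted p = 0.00844). Lbr, the lamin B receptor, was at 731, 684, 652 and 734 CPM in wt/wt, 1034 CPM in f/f and 172, 300.3, 285, 215 and 388 CPM in mutant oocytes (log2 fold change -1.50 ± 0.33 SE, edgeR adjusted p = 0.00482). For Lbr all mutant oocytes were below all controls, with the f/f oocyte the highest of the 10, as for Nup98.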

How the data were processed

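Single oocytes were sequenced after amplification of poly(A)-primed cDNA, a method that reaches at most 3 kb upstream of the poly(A) tail. The deposited values are raw counts for genes of RefSeq. The authors aligned reads to mm10 with TopHat2 2.0.6, kept unique best alignments and counted with HTSeq (0.5.3p9 in the submitters' processing notes), and the setting for strand is not given in the sources used here. The table holds 24064 genes and 14 libraries, and 0 of its columns lacked a sample. One column of the f/f oocyte C3, with about as many counts as its other library, bears the oocyte's name with the letters swapped, and was taken as that library. An alternative without it was added after the data were seen. The table of counts was used without the notes' DESeq2 1.4.5 step.

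Libraries sharing an oocyte name were summed, which gave 10 oocytes, with totals of 1375187 to 6928548 counts. Of 15432 genes with a count, the top 60% by total count (9198) were kept. Mutant oocytes were compared with control oocytes in R 4.3.3 with edgeR 4.0.16 and Benjamini-Hochberg adjustment over the 9198 genes. The fit used glmQLFit and glmQLFTest, two-sided, with genotype as the one term and TMM factors of 0.651 to 1.37. Every wt/wt oocyte had a factor of at least 1.3, no mutant oocyte had one above 0.952, and C3 had the lowest. For the wt/wt oocytes this scaling thus changes together with strain, library series and genotype. CPM values are over TMM-adjusted library sizes, and fold changes were fitted with edgeR's default prior count. The SE is the fold change divided by the square root of F. The script was tested on simulated data. Alternatives used DESeq2 1.42.0, limma 3.58.1, other scalings, filters and control groups, and each oocyte left out in turn.

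Genes named are all called genes, the most abundant uncalled gene of each role, Kpna7, Kpna2, Kpnb1 and Xpo1, and, of other lists, called genes, Ran and Kdm1a; others were added once values were known. The members, lists and tests were chosen with earlier results of these data known. Positions and lengths are from GENCODE vM21, matched by symbol for 40 of the 41 genes (98.5% of all), and promoter windows are from RefSeq (GRCm38.p6) for 31 of the 41. The extraction protocol in the labels speaks of embryos at the two-cell stage, while the labels call these samples oocytes.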

Additional observations from a re-analysis of the deposited data

Results flagged for a closer look

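In each group of 5 oocytes, the gap between the most extreme oocyte and its neighbour was set against the whole range of the group for the 31 tested genes. Of 62 groups examined, 5 passed the critical ratio of 0.71, where chance alone gives about 1 in 20, or 3.1. Among control oocytes, the f/f oocyte C3 stood apart in 3 genes. It was at 54.6 CPM of Nup205 with the next control at 16.0 CPM (ratio 0.787), at 169.8 CPM of Nup93 with the next at 63.8 CPM (ratio 0.737) and at 1614 CPM of Nup35 with the next at 1100.4 CPM (ratio 0.712). The wt/wt oocyte wt5 stood apart in Nup214, at 65.9 CPM with the next control at 26.6 CPM (ratio 0.754). Among mutant oocytes, D3 stood apart in Nup35, at 1696 CPM with the next at 1072 CPM (ratio 0.8). C3 differs from the wt/wt oocytes in strain and library series, and their part in these gaps was not tested.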

How the results depend on the processing

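None of the 11 called genes turned its direction under any alternative, while 12 uncalled genes did under at least 1 (Ipo5, Ipo11, Kpna6, Nup35, Nup37, Nup43, Nup85, Nup133, Nup153, Nup205, Nup210 and Xpo7). Of the 31 tested genes, 11 were called (8 higher, 3 lower), beside 25.9% of all genes. With the share of all genes called in brackets, the count was 8 with library totals alone (28.6%), 9 of 39 without a filter (16.5%), 10 with upper-quartile scaling (26.3%), 10 with 1 library per oocyte (27.9%), 11 with RLE factors (26.2%), 11 with the adjusted p alone (26.2%), 11 of 26 with filterByExpr (30.5%), 11 with every library its own sample (31.4%), 12 with DESeq2 (30.5%), 14 with GC and length trends removed (25.6%), 16 with limma voom (34.5%) and 16 with an unadjusted p (39.4%). With C3 taken from the library of matching name alone, chosen after seeing the data, 12 of 32 were called (25.6%), the 11 and Nup205, and 10 of the other lists. With library totals alone, 36.6% of all called genes were higher, against 56.8% in the reported fit, and 45.4% with GC and length trends removed. The median log2 fold change of the pore and receptor genes minus that of all genes was 0.27 as reported, 0.20 with library totals and 0.39 with GC and length trends removed. It was 0.10 without a filter, 0.54 without D4 and 0.0084 with the f/f oocyte alone as control. With the replicate block described below it was 0.56. Against the 4 wt/wt oocytes, 18 were called (14 higher, 4 lower). With the f/f oocyte alone as control, 0 were called, and 0 genes of the other transport lists, with 7 and 6 at an unadjusted p under 0.05 (22.6% and 15%, beside 19% of all genes). Leaving out each oocyte in turn gave 6 to 18 called genes, lowest without wt3 or wt4 (7 without wt1) and highest without C3, and the share of all genes called moved too (19% without wt3, 18.7% without wt4, 19.3% without wt1 and 31.5% without C3). For the other lists, the count of 12 stayed within 1.5 times under all alternatives but f/f alone and the block, but its split of 7 higher and 5 lower became 4 and 12 with library totals alone.

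The numbers in the descriptions that wt/wt and mutant libraries share (3, 4 and 5) were used as a replicate block, with every library as its own sample. In this fit 5 of the pore and receptor genes were called and 6 of the other lists, beside 10.5% of all genes. Of the 11 genes called in the reported fit, 4 stayed called (Kpna2, Nup50, Nup62 and Nup93), and Nup205 was added. Ipo9, Nup107, Nup155, Nup160, Nup188, Nup98 and Xpo6 were lost, with Nup188 at a log2 fold change of 1.93 (edgeR adjusted p = 0.0724). Libraries of equal number did not deviate together (r across genes = 0.0751, 0.0984 and -0.0902 for 3, 4 and 5), and numbers 3 and 4 of wt/wt correlated best with their own number while 5 correlated best with mutant number 3. No pair passed an r of 0.1, a value set without a reference distribution. Mutant numbers 4 and 5 are both libraries of D3, so these numbers cannot pair separate oocytes.

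Depth limits the genes under 3 counts, which correspond to 0.456 to 1.83 CPM, and 10 of the 41 genes were too low to be tested.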
